A study of Mus musculus with 6 samples.

Results

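The miR-191 and miR-425 precursors are a pair of microRNA (miRNA) hairpins that lie close together on mouse chromosome 9 and are transcribed from the same strand. Each hairpin can give a mature miRNA from its 5′ side (5p) and from its 3′ side (3p), so the locus has 4 mature products: mmu-miR-191-5p, mmu-miR-191-3p, mmu-miR-425-5p and mmu-miR-425-3p (mmu stands for mouse and is left out from here on). They were matched by name, as the 4 references so named among the 911 mature miRNA references counted in the series, and all 4 had reads in all 6 libraries. The choice of these products was made with earlier results of these data known. The libraries came from bone-marrow-derived macrophages of mice without ApoE (ApoE-KO, here EKO) and of wild-type mice (WT), with 3 libraries of each genotype. Per the labels, marrow of male mice aged 6 to 12 weeks was grown in medium with 10% serum, and every culture, EKO and WT alike, received macrophage colony-stimulating factor (M-CSF) at 25 ng/mL every 2 days for 6 days. The series design calls the 3 replicates of each genotype biological, and the labels give no sex other than male and no strain or further allele. ApoE carries lipid out of macrophages, and the question of the study was which miRNAs differ when the gene is lost. Small RNA libraries do not count its mRNA, and the genotype labels could not be checked.

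In the making of a miRNA, the enzyme Drosha cuts the hairpin out of a longer transcript, Dicer cuts off its loop, and 1 strand of the remaining duplex is kept in an Argonaute protein while the other is mostly degraded. The kept strand finds target mRNAs by its seed, bases 2 to 8. The strand whose 5′ end is the less firmly paired tends to be kept, so the arms of 1 hairpin usually differ widely in level although they are made in equal number. Both precursors are expressed in most tissues. In mouse erythroblasts miR-191 is known to target the Riok3 and Mxi1 transcripts, and miR-191-5p is often used as a reference for normalization in miRNA assays. In human cells miR-425-5p is known to target the transcript of NPPA, the precursor of atrial natriuretic peptide.

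The mature sequences, from RefSeq on the GRCm38.p6 build, are shown to compare the seeds, since miRNAs with the same seed can find the same target sites. Capitals mark the seed.
miR-191-5p: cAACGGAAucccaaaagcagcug
miR-191-3p: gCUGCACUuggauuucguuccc
miR-425-5p: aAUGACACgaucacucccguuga
miR-425-3p: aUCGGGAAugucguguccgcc
The 4 seeds differ from each other. Among the 1679 mature miRNAs of the RefSeq table, no other miRNA has the seed of miR-191-5p, miR-191-3p or miR-425-3p. The seed of miR-425-5p is shared with 1 other miRNA, miR-489-3p, which was not counted in any of the 6 libraries.

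The hairpins are shown because the results below turn on the balance between their arms. Capitals mark the mature arms, the 5p first.
Mir191: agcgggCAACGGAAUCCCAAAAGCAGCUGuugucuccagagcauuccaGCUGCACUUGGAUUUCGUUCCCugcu
Mir425: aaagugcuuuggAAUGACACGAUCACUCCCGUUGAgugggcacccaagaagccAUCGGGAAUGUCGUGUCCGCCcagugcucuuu
Mir191 spans chr9:108568319-108568392 and Mir425 spans chr9:108568777-108568861, both on the + strand of GRCm38.p6, with 384 bases between them. RefSeq places both hairpins inside the gene Dalrd3, at chr9:108567484-108572773. The annotation of GENCODE M21, on the same assembly, differs from this. None of its 9 Dalrd3 transcripts reaches the hairpins, and the first of them starts 1024 bases beyond the end of Mir425. In GENCODE both hairpins are exonic, within the single exon (exon 1) of the long non-coding RNA 4833445I07Rik-201 at chr9:108567533-108569174. Folded alone with RNAfold, the Mir191 hairpin had a minimum free energy of -35.0 kcal/mol and the Mir425 hairpin one of -31.7 kcal/mol. In the predicted fold of Mir191, 3 of the first 4 bases of the 5p arm were paired, 1 of them in a G-C pair, while all 4 of the 3p arm were paired, 3 in G-C pairs. In that of Mir425, 1 of the first 4 bases of the 5p arm was paired, in a G-C pair, and all 4 of the 3p arm were paired, 2 in G-C pairs. In both folds the 5p arm was thus the one with fewer paired bases at its 5′ end.

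The libraries held 34651511 to 39532544 reads on mature miRNAs in EKO and 38440290 to 41331604 in WT. At least 1 read was found for 543 to 591 mature miRNAs in the EKO libraries and for 664 to 698 in the WT libraries, with no overlap between the genotypes. Of 6 macrophage and myeloid miRNAs, 5 had lower values in EKO, and their summed level was 140357 to 168502 CPM in EKO (CPM, counts per 1000000 mature miRNA reads) and 213591 to 226571 in WT, nearly all of it miR-21a-5p. The list held miR-223-3p, lower in EKO, but not miR-223-5p, the more abundant arm of that hairpin here. With the TMM scaling described below, miR-223-5p was higher in EKO (2789 CPM, SD 104) than in WT (2024 CPM, SD 141), without overlap. Lymphoid miRNAs summed to 489 to 592 CPM in EKO and 684 to 801 in WT (3 of 3 lower). Nearly all of this was miR-181a-5p, which overlapped between the genotypes, and miR-181b-5p, which did not. Under TMM scaling miR-150-5p averaged 3.63 CPM (SD 1.44) in EKO and 5.17 CPM (SD 0.763) in WT, and overlapped. Stromal fibroblast miRNAs summed to 75.9 to 118 CPM in EKO and 179 to 221 in WT (2 of 3 tested lower), most of it miR-143-3p. The endothelial miR-126a arms summed to 64.6 to 73.1 CPM in EKO and 76.3 to 79.9 in WT (1 of 1 tested lower). Erythroid (1 of 2 tested lower) and epithelial (2 of 4 tested lower) sums overlapped between the genotypes. Over all 575 miRNAs tested, 58.3% had lower values in EKO, and in 18.8% all EKO values lay below all WT values. Of the defining erythroid miRNAs, miR-144-3p had no reads. With the TMM scaling described below, miR-451a averaged 4.28 CPM (SD 2.66) in EKO and 0.187 CPM (SD 0.323) in WT. None of these markers was called by the edgeR test described below. The part of these differences in the results below was not tested.

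The levels of the 4 products are given as CPM further scaled by the TMM method. Changes were tested with edgeR over all 575 miRNAs that passed the filter on low counts, a filter that all 4 products passed. Log2 fold changes are EKO over WT. A call is a Benjamini-Hochberg adjusted p under 0.05. No read of the 4 products matched another reference, so their counts do not depend on how shared reads were divided.

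The 4 products held the same order in every library, with miR-191-5p first, then miR-425-5p, miR-191-3p and miR-425-3p. Of all reads on the locus, miR-191-5p took 84.6%, 87.4% and 87.3% in the EKO libraries and 89.6%, 86.7% and 89.3% in the WT libraries. The share of miR-425-5p was 14.7%, 12.3% and 11.8% in EKO and 9.28%, 12.2% and 9.71% in WT. The remaining small share of each library fell to the 3p arms. Ligation and PCR favour some sequences, so that ratios between different miRNAs of 1 library are not ratios of molecules, while the same ratio can be compared between libraries.

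In both genotypes miR-191-5p was among the abundant miRNAs of the macrophages, the 30th of 911 by mean level. Its level was 2680, 3301 and 3232 CPM in the 3 EKO libraries and 3679, 3035 and 3855 CPM in the 3 WT libraries. The genotypes overlapped, since EKO replicates 2 and 3 lay above WT replicate 2. The EKO mean was 3071 ± 340 CPM and the WT mean 3523 ± 431 CPM (SD, n = 3 each). This gave a log2 fold change of -0.20 ± 0.13 (SE), within the spread between replicates (adjusted p = 0.509, edgeR quasi-likelihood test). In the order of mean level its neighbours were miR-378a-3p above and miR-3963 below, whose ranges over the 6 libraries, 3314 to 3738 CPM and 2605 to 3908 CPM, overlapped that of miR-191-5p.

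The main product of the other hairpin, miR-425-5p, was the least variable of the 4. It stood at 467, 465 and 435 CPM in EKO and 381, 427 and 419 CPM in WT, 77th by mean level. All 3 EKO values lay above all 3 WT values, by a gap that was smaller than the spread within WT. In CPM without TMM scaling the genotypes overlapped, since EKO replicate 1 was at 437 CPM and WT replicate 3 at 440 CPM. The EKO mean was 456 ± 17.7 CPM and the WT mean 409 ± 24.9 CPM (SD, n = 3 each). The log2 fold change, 0.16 ± 0.12 (SE), was not called (edgeR adjusted p = 0.585). Among all miRNAs tested, 12.5% had all EKO values above all WT values. Its neighbours by level were miR-20a-5p above, between 212 and 902 CPM, and miR-210-3p below, between 293 and 478 CPM, both with ranges that overlapped its own.

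The minor product of the first hairpin, miR-191-3p, stood at 15.8, 9.84 and 25.3 CPM in EKO and 31.6, 20.05 and 25.1 CPM in WT. The EKO values were spread more widely, and EKO replicate 3 lay among the WT values. The EKO mean was 17.0 ± 7.81 CPM and the WT mean 25.6 ± 5.80 CPM (SD, n = 3 each). At -0.59 ± 0.39 (SE), the log2 fold change was within the spread between replicates (edgeR adjusted p = 0.498). Behind these values were 512, 394 and 961 reads in EKO and 1226, 807 and 1077 reads in WT.

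The scarcest product, miR-425-3p, showed the widest difference of the 4. It stood at 5.64, 2.72 and 8.25 CPM in EKO and at 13.4, 17.2 and 18.02 CPM in WT. No EKO library reached the level of any WT library, and EKO replicate 2 was the lowest of all. The EKO mean was 5.54 ± 2.76 CPM and the WT mean 16.2 ± 2.46 CPM (SD, n = 3 each), so that the WT mean was 2.93-fold the EKO mean. The log2 fold change of -1.55 ± 0.49 (SE) had an unadjusted p of 0.0129 and an adjusted p of 0.105, and was not called (edgeR quasi-likelihood test). The read counts were 183, 109 and 313 in EKO and 520, 692 and 773 in WT. In bulk cultures, a lower level in every cell and fewer cells that hold the miRNA cannot be told apart.

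None of the 4 products was called with edgeR, which called 0% of the 575 miRNAs tested. At an unadjusted p under 0.05, 1 of the 4, miR-425-3p, was lower in EKO, where 13% of all tested miRNAs were. Likewise 1 of the 4 had all EKO values below all WT values, against 18.8% of all tested miRNAs, and 3 of the 4 had a negative log2 fold change, against 58.3%. The calls on miR-425-3p depended on the test. DESeq2 called it lower (log2 fold change -1.48, adjusted p = 0.0328), and called 16.3% of the 564 miRNAs to which it gave an adjusted p. The edgeR test kept to miRNAs averaging 10 CPM or more also called it (-1.53, adjusted p = 0.0440), among 23.5% of 251 miRNAs called. With its mean of 10.9 CPM, miR-425-3p only just passed that restriction. Over all settings run, its adjusted p ranged from 0.0328 to 0.358 and its log2 fold change stayed negative.

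**Figure D1:**
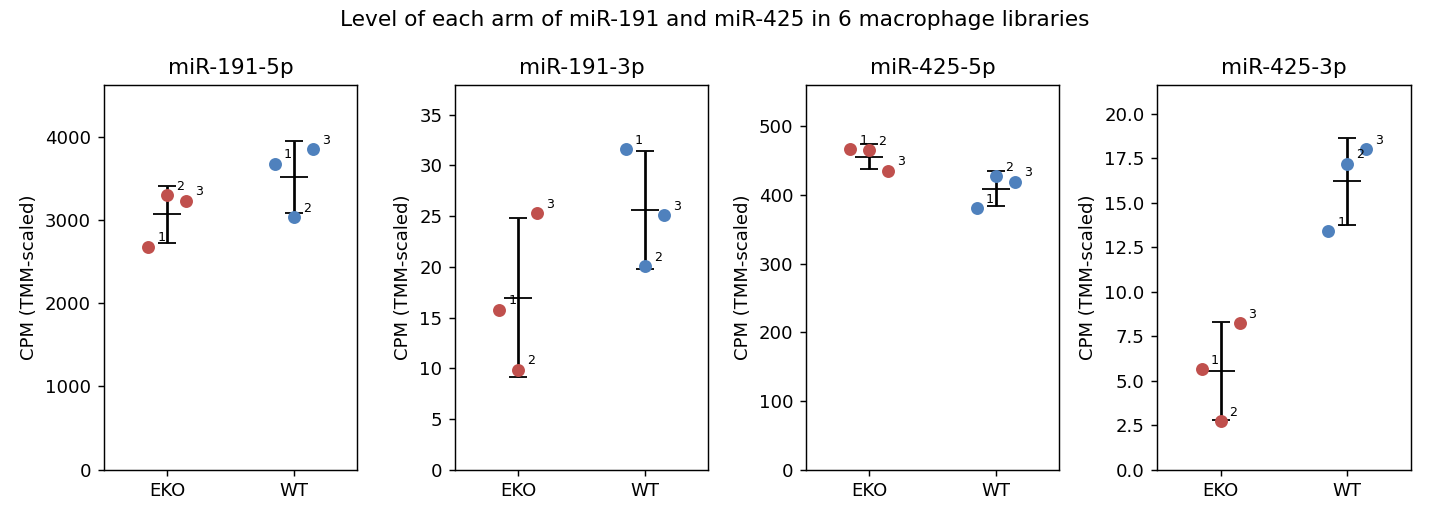
Level of each product in CPM with TMM scaling (y axes from 0, a separate scale for each product) in the 3 EKO and 3 WT libraries. Points are libraries numbered by replicate, and the bars give the mean and SD. For miR-425-3p the EKO libraries sit between 2.72 and 8.25 CPM and the WT libraries between 13.4 and 18.02 CPM, while miR-191-5p and miR-191-3p overlap between the genotypes.

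The balance between the arms of each hairpin was then compared as the log2 ratio of 5p to 3p reads within a library, which needs no scaling between libraries. It was tested with limma over the 98 precursors for which both arms averaged at least 1 CPM. In every library the 5p arm dominated both hairpins.

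For miR-425 the excess of the 5p arm was larger in each EKO library than in any WT library. There were 82.8, 171 and 52.8 reads of miR-425-5p for each read of miR-425-3p in the EKO libraries, and 28.4, 24.9 and 23.3 in the WT libraries. All EKO values lay above all WT values, and the WT libraries were closer to each other than the EKO libraries were. On the log2 scale the ratio averaged 6.50 ± 0.85 (SD) over the EKO libraries and 4.67 ± 0.15 over the WT libraries. The difference of 1.83 ± 0.48 (SE), or 3.56-fold, had an unadjusted p of 0.0116 and an adjusted p of 0.178, and was not called (limma). Stated as a share, miR-425-3p made up 1.21% ± 0.639 (SD) of the reads of its hairpin in EKO and 3.80% ± 0.364 in WT. The EKO library with the highest share, replicate 3, had 1.86% (95% Wilson interval 1.67% to 2.07%), and the WT library with the lowest, replicate 1, had 3.40% (3.13% to 3.70%). These intervals take every read as independent and are too narrow to that extent, since reads copied in PCR are not independent molecules. They also leave out the spread between libraries.

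For miR-191 the arm ratio overlapped between the genotypes. There were 170, 335 and 128 reads of miR-191-5p for each read of miR-191-3p in EKO, and 116, 151 and 154 in WT. The EKO replicate 2 was the high library, as it was for miR-425. The log2 ratio averaged 7.60 ± 0.72 (SD) over the EKO libraries and 7.12 ± 0.23 over the WT libraries, a difference of 0.48 ± 0.42 (SE, adjusted p = 0.516, limma). The 3p arm made up 0.553% ± 0.242 of the reads of its hairpin in EKO and 0.719% ± 0.116 in WT.

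None of the 98 precursors was called for its arm ratio (0%), and 21.4% had an unadjusted p under 0.05 (limma). In 14.3% all EKO values lay above all WT values, as for miR-425. The difference of miR-425 was the 20th in size and had the 6th smallest p. A larger excess of the dominant arm in EKO was common. In 66 of the 98 precursors (67.3%) the ratio of dominant to minor arm was higher in EKO, with a median difference of 0.45 on the log2 scale, close to the 0.48 of miR-191. In level, the 95 minor arms tested with edgeR had a median log2 fold change of -0.24 (60 lower in EKO), and the 98 dominant arms one of -0.11 (57 lower). Over all 575 miRNAs tested, 58.3% were lower in EKO. The 325 miRNAs averaging under 10 CPM had a median of -0.24, with 61.2% lower. The 134 averaging 10 to 100 CPM had a median of 0.002, with 49.3% lower. The 116 averaging 100 CPM or more had a median of -0.085, with 60.3% lower. The minor arms had a median level of 10.97 CPM, so they were not confined to the lowest of these levels. Whether a lower level was particular to minor arms, at a matched level, was not tested. The EKO libraries were also those with fewer miRNAs detected, and the part of this in the arm ratio of miR-425 was not tested.

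**Figure D2:**
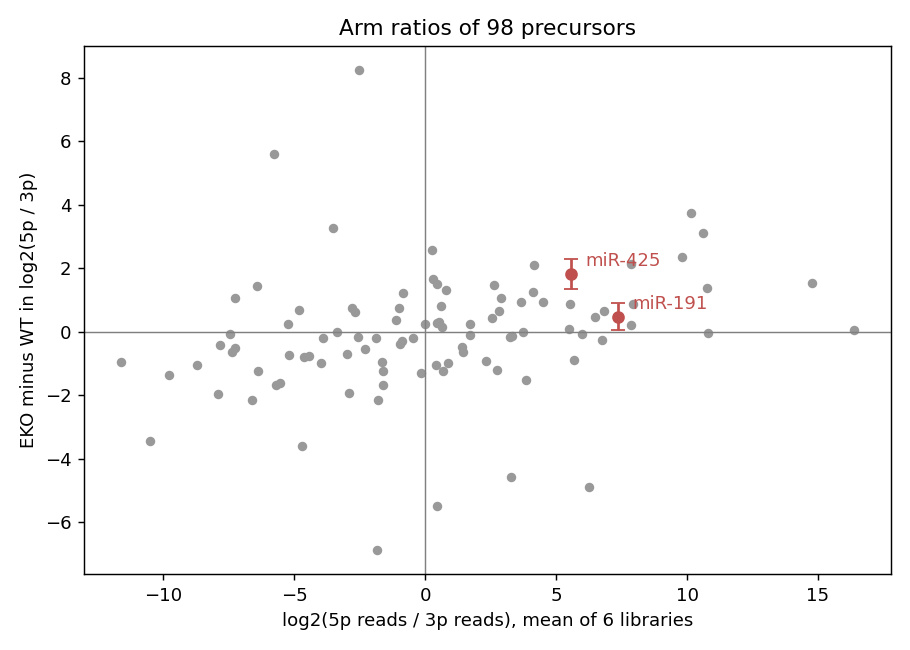
Each point is a precursor, 98 in all, with the mean log2 ratio of 5p to 3p reads over the 6 libraries on the x axis and the difference of that ratio, EKO minus WT, on the y axis. The bars of miR-425 (1.83 ± 0.48) and miR-191 (0.48 ± 0.42) are SE. Both lie on the right, among precursors with a dominant 5p arm, and precursors with larger differences than miR-425 lie in both directions.

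The precursors share a strand and, in GENCODE, an exon, so their outputs were set against each other in each library. The hairpin of miR-191, both arms summed, gave 5.71, 7.08 and 7.34 times the reads of that of miR-425 in the EKO libraries, and 9.41, 6.87 and 8.87 times in the WT libraries. WT replicate 2 lay among the EKO libraries, and the genotypes overlapped. The log2 ratio averaged 2.74 ± 0.20 (SD) over the EKO libraries and 3.05 ± 0.24 over the WT libraries, a difference of -0.32 (two-sided exact permutation p = 0.3; the smallest p that 3 libraries a genotype allow is 0.1). For the 5p arms alone the difference was -0.35 (exact permutation p = 0.2). The opposite signs of miR-191-5p and miR-425-5p were therefore not shown to be a difference between them beyond the spread of the libraries.

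The balance of the 3p arms did not overlap between the genotypes. Each read of miR-425-3p was matched by 2.80, 3.61 and 3.07 reads of miR-191-3p in EKO and by 2.36, 1.17 and 1.39 in WT. The log2 ratio averaged 1.65 ± 0.19 (SD) over the EKO libraries and 0.65 ± 0.53 over the WT libraries, a difference of 1.01 (two-sided exact permutation p = 0.1, the smallest that the design allows). This ratio was chosen after the values of the arms had been seen. The 4 products summed to 3168, 3779 and 3701 CPM in EKO and 4104, 3500 and 4317 CPM in WT, a difference of -0.16 in log2 CPM (exact permutation p = 0.3), with the genotypes overlapping.

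**Figure D3:**
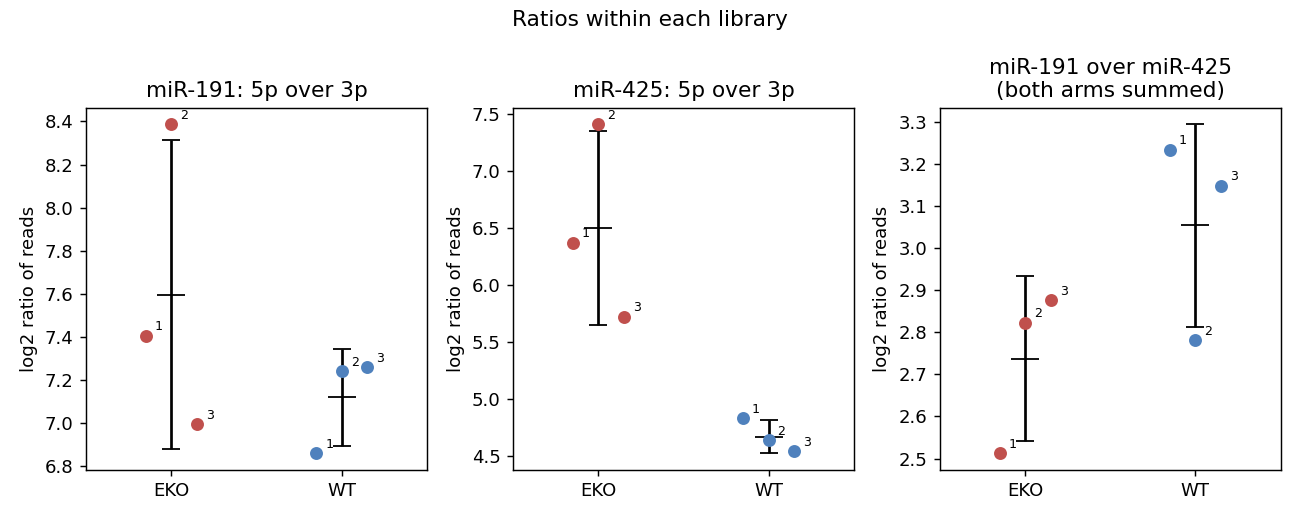
Log2 ratios of reads within each library, for the arms of miR-191, the arms of miR-425, and miR-191 over miR-425 with both arms summed (y axes differ and do not start at 0). Points are libraries numbered by replicate, and the bars give the mean and SD. Only in the panel of the miR-425 arms, at 6.50 ± 0.85 in EKO and 4.67 ± 0.15 in WT, do the genotypes not overlap.

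Of 10 other pairs of precursors from a shared transcript, 7 had reads of both precursors in every library. Their differences in log2 ratio, EKO minus WT, ran from -0.97 for miR-23a over miR-27a to 0.86 for miR-106b over miR-93, with 4 of the 7 not overlapping between the genotypes. Among these 4, miR-106b over miR-93 and miR-93 over miR-25 share miR-93 and so are not independent. For miR-221 over miR-222 the log2 ratio averaged -2.79 in the EKO libraries (SD 0.21) and -2.07 in the WT libraries (SD 0.21), with an exact permutation p of 0.1 for 3 libraries each. For miR-23b over miR-27b it averaged -3.41 in EKO (SD 0.08) and -3.39 in WT (SD 0.07), with an exact permutation p of 0.7. The -0.32 of miR-191 over miR-425 lay inside the range of these pairs. Over the 8 pairs the smallest p adjusted by Benjamini-Hochberg was 0.2 (exact permutation test). With 3 libraries a genotype no p of this test can fall under 0.1, so no pair could have been called.

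The deposited tables also give the number of distinct read sequences behind each count, which end variants, added bases and sequencing errors all raise. The products with more reads had more distinct sequences in every library. For miR-425-3p there were 12, 13 and 19 in EKO and 33, 48 and 46 in WT, without overlap. The reads per distinct sequence of miR-425-3p were 15.3, 8.38 and 16.5 in EKO and 15.8, 14.4 and 16.8 in WT, and overlapped, so that reads and distinct sequences were lower together. For miR-191-3p there were 21, 21 and 54 distinct sequences in EKO and 58, 52 and 65 in WT. For miR-191-5p there were 567, 640 and 709 in EKO and 815, 714 and 893 in WT. Each EKO library lay below each WT library, although the levels of miR-191-5p overlapped. The reads per distinct sequence of miR-191-5p were 153, 206 and 173 in EKO and 175, 171 and 185 in WT, and overlapped. Summed over all mature miRNAs, the distinct sequences were also fewer in each EKO library (48275 to 57650) than in any WT library (62572 to 67508). For miR-425-5p, at 203, 261 and 250 in EKO and 254, 258 and 300 in WT, they overlapped.

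**Figure D4:**
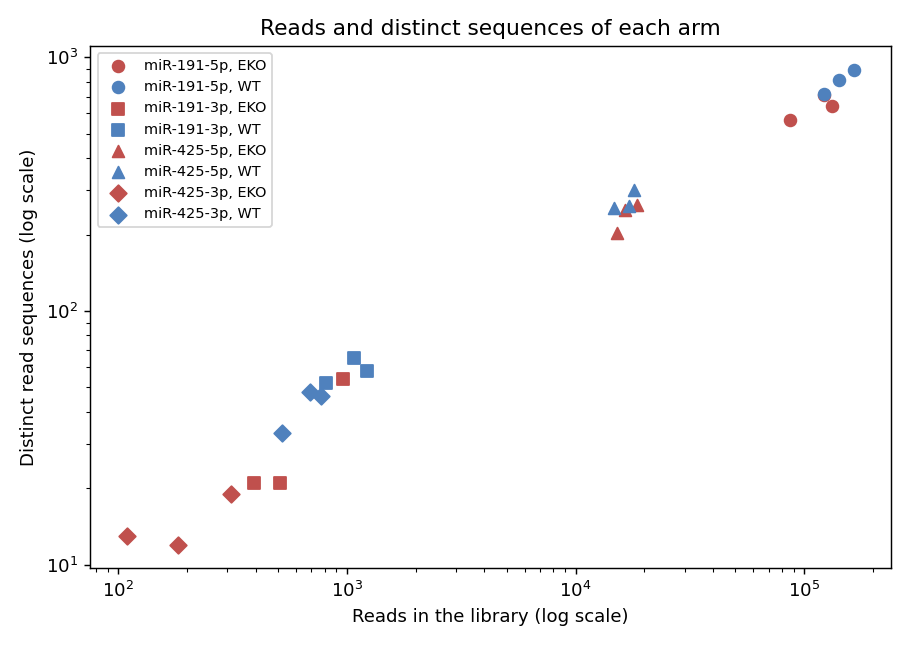
Distinct read sequences (y axis, log scale) against reads (x axis, log scale) for each product in each library, with the product given by the symbol and the genotype by the colour. The points follow a single rising band, and the EKO libraries of miR-425-3p, with 12 to 19 distinct sequences, lie at its lower end.

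Because miR-191-5p is widely used as a reference, it was set beside 16 miRNAs that are used in the same way, 15 of which passed the filter. None of the 15 was called. At an unadjusted p under 0.05 there were 10 of the 15, where 21.4% of all tested miRNAs were, and 7 of the 15 were lower in EKO at that p, where 13% of all were. In all, 10 of the 15 had lower values in EKO and 5 higher (9 and 6 with DESeq2 size factors, where miR-24-3p changed side). Their median log2 fold change was -0.49, where that of all tested miRNAs was -0.16. The smallest p-values (edgeR adjusted p from 0.0766 to 0.0786) belonged to 3 members. For miR-93-5p the EKO libraries averaged 406 ± 53.4 CPM and the WT libraries 683 ± 122 CPM. For miR-151-3p the averages were 18854 ± 5893 CPM for EKO and 8721 ± 1873 CPM for WT, and for miR-103-3p they were 599 ± 83.6 CPM for EKO and 986 ± 200 CPM for WT (SD over 3 libraries). The log2 fold changes of the list ran from -0.75 to 1.11, and those of miR-191-5p and miR-425-5p lay inside this range at -0.20 and 0.16. Only miR-24-3p (-0.07) and miR-25-3p (0.14) had a log2 fold change nearer to 0 than miR-425-5p, and no member of the list lay between miR-425-5p and miR-191-5p in size.

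**Figure D5:**
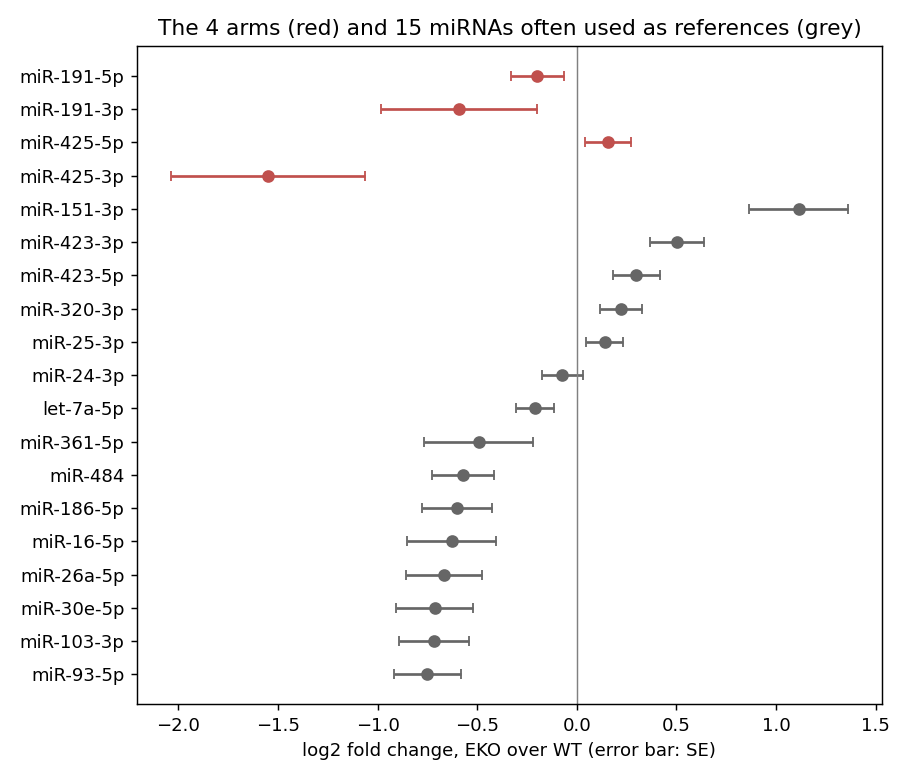
Log2 fold change, EKO over WT, of the 4 products (red) and of 15 miRNAs often used as references (grey), with SE as error bars. miR-191-5p (-0.20) and miR-425-5p (0.16) lie near 0, and the list runs from -0.75 for miR-93-5p to 1.11 for miR-151-3p.

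Among 249 other miRNAs averaging at least 10 CPM, those whose log2 CPM followed miR-191-5p most closely over the 6 libraries were miR-362-5p (Pearson r = 0.97), miR-298-5p (0.93) and miR-1983 (0.91). For miR-425-5p they were miR-365-2-5p (0.97), miR-1934-3p (0.95) and miR-6945-3p (0.91). These are descriptions of 6 libraries that share depth and genotype, and the highest of many coefficients were picked. The 3 miRNAs like miR-425-5p were also higher in EKO, but by more, with miR-365-2-5p averaging 21.6 CPM (SD 4.42) in EKO and 9.05 CPM (SD 3.41) in WT. Neither 5p arm of the locus was among the 3 closest to the other, and the correlation between them is not reported here.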

How the data were processed

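Small RNA was sequenced from 3 EKO and 3 WT macrophage cultures, per the labels, after extraction of total RNA with a Qiagen RNeasy kit and library preparation with an NEB small RNA kit. The authors deposited 1 table of mature miRNA counts per library. The submitters' processing notes name the mm9 build, with the aligner and counter not given in the sources used here. Per the file headers, each table holds the count of distinct sequences, the total read count and a read count adjusted for reads that match several miRNAs. The deposited adjusted counts are estimated counts (expected counts), which were rounded to whole numbers and used for all levels. A deposited barcode count was 0 for every miRNA and was not used. A miRNA that a table does not list was taken as 0.

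The 4 products, the lists and the rules were chosen with earlier results of these data known. Libraries were scaled by TMM and tested with edgeR 4.0.16 (quasi-likelihood F-test, filterByExpr, genotype as the only term) over all miRNAs, in R 4.3.3. Arm ratios, log2 of reads plus 0.5, were tested with limma 3.58.1, and single ratios with two-sided exact permutation tests. The SE of a log2 fold change was taken as its absolute value over the root of F. P-values were adjusted by Benjamini-Hochberg. Named besides the products were the 3 list members with the smallest p, the neighbours by mean level and the 3 miRNAs with the highest correlation to each 5p arm. Hairpins were folded with RNAfold 2.7.2. The fits were tested on simulated data. DESeq2 1.42.0, limma-voom, other scalings and filters, a replicate block, a GC correction and leaving out each library were the alternatives. Coordinates and sequences come from RefSeq and GENCODE M21 on GRCm38, and none were converted from mm9.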

Additional observations from a re-analysis of the deposited data

How the results depend on the processing

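The products, their ratios and their summed level kept their direction under every alternative run, while miR-24-3p of the reference list changed sign with DESeq2 size factors. The number of miRNAs called, 0 by edgeR (123 at an unadjusted p under 0.05), was 92 by DESeq2, 32 by limma-voom, 52 without the filter on low counts and 59 when the mean had to reach 10 CPM. It was 62 with a replicate block and 51 with a replicate block and GC correction, and leaving out 1 library each gave 0 to 45, with 45 only without EKO replicate 3. Deviations of same-numbered libraries correlated at -0.12, -0.04 and -0.04, which showed no pairing by replicate number. A correlation that includes scarce miRNAs cannot exclude such a pairing, because their values are noisy. The 325 miRNAs averaging under 10 CPM had a median SE of 1.59, against 0.32 for the 134 averaging 10 to 100 CPM. Whether the replicates were paired was left undecided. In the block fit miR-425-3p was at -1.67 (adjusted p = 0.0990, edgeR). Its log2 fold change of -1.55 ran from -1.96 to -1.21 over the alternatives, and it passed the threshold at -1.48 by DESeq2 and at -1.53 when the mean had to reach 10 CPM. The number of precursors called for their arm ratio, 0 by limma, was 1 with each arm at 10 CPM or more, 4 without a filter, and 0 to 1 with 1 library left out. The arm ratio difference of miR-425 ran from 1.38 without EKO replicate 2 to 2.22 without EKO replicate 3, and that of miR-191 from 0.08 to 0.78 without the same libraries. For miR-191-3p the log2 fold change (-0.59) ran from -0.997 without EKO replicate 3 to -0.30 without EKO replicate 2. The log2 fold change of miR-191-5p (-0.20) was -0.10 without EKO replicate 1, -0.12 without WT replicate 3 and -0.11 with DESeq2 size factors, and that of miR-425-5p (0.16) was 0.24 with those factors. The summed level (-0.16) was at -0.07 without EKO replicate 1, -0.09 without WT replicate 3 and -0.08 with DESeq2 size factors. The log2 ratio of miR-191 over miR-425 (-0.32) was -0.21 without EKO replicate 1. The causes were not tested. With 109 to 313 reads in EKO, counting error bears most on miR-425-3p, and 3 libraries a genotype limit every comparison.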
